A study of Mus musculus with 24 samples.

Results

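The subject is a set of 10 transcription factors of the Ets family, Spib, Spi1 (which encodes PU.1), Spic, Ets1, Ets2, Etv3, Etv6, Elf1, Elf4 and Fli1, whose transcripts were measured by RNA sequencing in sorted dendritic cells of the mouse spleen. The genes were taken by symbol from the deposited count table of 39017 genes. All 10 were found, and all 10 passed the filter on low counts that left 18093 genes for testing. The table held 24 libraries. In 12 libraries the cells came from Flt3 ITD/+ mice (ITD), which carry 1 allele of Flt3 with an internal tandem duplication, and in 12 they came from Flt3 +/+ mice (WT). Both genotypes were F1 animals of the cross C57BL/6 x FVB/N. Flt3 is a receptor tyrosine kinase whose ligand promotes the growth of dendritic cells and their precursors, and the series title calls the mutation leukemia-associated and activating. The labels give no age, sex or number of animals. The duplication is written as a germline genotype, so every cell type of the animal carries it.

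Cells of 5 subsets were sorted. They were PDC (commonly short for plasmacytoid dendritic cells), non-canonical CD8+ cells (NC_CD8), canonical CD8+ cells (C_CD8), and CD11b+ cells divided into Esam-hi (Esamhi) and Esam-lo (Esamlo). Either CD8+ subset had 3 libraries per genotype, and the other subsets had 2. PDC were sorted in experiment batches A and B, CD8+ cells in B, C and D, and CD11b+ cells in C and D. Every batch held 1 ITD and 1 WT library of each of its subsets, which makes 12 pairs. Replicates came from independent experiments per the design text, and p-values measure the spread between these libraries.

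Ets factors share a winged helix-turn-helix domain that binds DNA at a GGAA core. PU.1 and Spi-B are close relatives with much the same binding sequence. PU.1 is needed for myeloid and conventional dendritic cell development and sustains Flt3 expression, whereas Spi-B is a factor of plasmacytoid dendritic cells and B cells. Spi-C, the other member of that subfamily, is known for red pulp macrophages of the spleen, which recycle iron. Ets1, Ets2 and Fli1 are mainly activators, Etv6 and Etv3 are repressors, and Elf1 and Elf4 form a further subfamily active in lymphoid cells.

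RefSeq promoter windows (build GRCm38.p6, 250 bases before to 50 bases after a gene's start) were matched for 7 of the 10 genes, in 9 windows. Spi1, Ets1 and Fli1 had no entry. The windows of Spib, Etv3 and Etv6 are shown because these were the genes that differed between ITD and WT once libraries were compared within their pairs. Capitals mark the Ets core, GGAA or TTCC on the other strand. The Spib window is chr7:44532022-44532321 on the minus strand, the Etv3 window chr3:87525328-87525627 and the Etv6 window chr6:134035450-134035749, both on the plus strand. All are written 5′ to 3′ on the gene's strand.
Spib: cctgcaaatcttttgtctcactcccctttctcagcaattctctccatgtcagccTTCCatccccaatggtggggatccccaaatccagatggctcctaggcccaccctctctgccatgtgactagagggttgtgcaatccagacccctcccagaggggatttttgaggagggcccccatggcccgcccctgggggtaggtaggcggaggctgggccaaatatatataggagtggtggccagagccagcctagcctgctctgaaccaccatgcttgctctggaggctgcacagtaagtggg
Etv3: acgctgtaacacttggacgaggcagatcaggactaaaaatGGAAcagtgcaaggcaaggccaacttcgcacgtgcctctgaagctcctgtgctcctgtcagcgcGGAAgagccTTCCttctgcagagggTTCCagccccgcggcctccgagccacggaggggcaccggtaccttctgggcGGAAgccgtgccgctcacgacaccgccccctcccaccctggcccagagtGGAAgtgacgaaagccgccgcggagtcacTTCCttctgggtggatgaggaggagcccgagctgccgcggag
Etv6: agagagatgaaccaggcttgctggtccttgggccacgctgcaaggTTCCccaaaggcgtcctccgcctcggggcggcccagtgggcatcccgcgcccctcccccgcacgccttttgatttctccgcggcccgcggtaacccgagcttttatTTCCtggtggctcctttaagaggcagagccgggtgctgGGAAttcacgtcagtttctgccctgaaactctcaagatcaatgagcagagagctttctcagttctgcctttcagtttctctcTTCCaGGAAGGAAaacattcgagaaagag

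The Spib window held 1 Ets core, the Etv3 window 7 and the Etv6 window 6, counted on both strands. Of 32851 windows of the same length in the table, 96.0% held at least 1 core, with a median of 3. The longer PU.1-type site GAGGAAGT was in none of the 9 windows and in 3.2% of all windows. The STAT-type motif TTCNNNGAA was in the Etv6 window, where it overlaps 2 of the Ets cores, and in 8.3% of all windows. The E-box CANNTG was in the Spib window 2 times, in the Etv3 window 2 times, and in 72.3% of all windows. These are matches of letters and say nothing of binding.

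Libraries held 11197145 to 22248404 counts, and levels are given as CPM, counts scaled to the library total (per mega-count). The sorted labels were checked against markers. Siglech, a lectin of plasmacytoid cells, ran from 4871 to 5450 CPM in PDC and from 2.78 to 308 CPM in the other subsets. Zbtb46, a factor of conventional dendritic cells, was at 3.15 to 6.48 CPM in PDC and at 200 CPM or more elsewhere. Xcr1, a chemokine receptor of type 1 conventional dendritic cells (cDC1), was at 540 to 1200 CPM in C_CD8 cells and at 7.04 to 165 CPM in NC_CD8 cells, and Esam was at 56.4 to 69.2 CPM in Esamhi against 4.03 to 13.7 CPM in Esamlo cells. These single genes went with the labels, while summed marker lists did not separate every subset. The 8 cDC1 markers summed to 4298 to 7506 CPM in PDC, of which Irf8 alone had 3807 to 7036 CPM, to 585 to 1788 CPM in NC_CD8, to 3400 to 7013 CPM in C_CD8, to 272 to 401 CPM in Esamhi and to 657 to 1389 CPM in Esamlo cells. The 8 markers of type 2 conventional dendritic cells (cDC2) summed to 1911 to 2479 CPM in PDC, which overlapped the CD11b+ subsets (2204 to 2884 CPM). The 4 genes listed for the CD11b+ fractions summed to 952 to 1243 CPM in PDC and to less, 408 to 769 CPM, in the CD11b+ subsets. Counts per gene do not separate the ITD allele of Flt3 from the WT allele.

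Spib was far higher in PDC than in any other subset. In WT cells Spib was at 1421 and 1000 CPM in PDC, at 93.7, 151 and 155 CPM in NC_CD8, at 7.32, 3.9 and 8.31 CPM in C_CD8, at 47.9 and 45.8 CPM in Esamhi, and at 38.5 and 34.1 CPM in Esamlo cells. No library of PDC, of NC_CD8 or of C_CD8 cells overlapped another subset, and the highest group mean was 186 times the lowest. The order in WT was PDC, NC_CD8, Esamhi, Esamlo, C_CD8, and ITD cells had the same order. In WT the log2 fold change was 3.22 ± 0.32 (SE, adjusted p = 6.25e-07, edgeR quasi-likelihood test) for PDC against NC_CD8 and 7.44 ± 0.38 (adjusted p = 1.11e-10) for PDC against C_CD8. NC_CD8 cells were above C_CD8 cells by log2 4.22 ± 0.33 (adjusted p = 8.51e-08). The 9 B cell markers in the table were also higher in PDC, at 2240 to 3303 CPM against 337 to 1138 CPM in the other subsets. Of them Pax5 was at 0 in all 4 PDC libraries, and Ighm alone had 2202 to 3233 CPM in PDC. Within batch B, the batch that holds these 3 subsets together, the WT levels were 1000 CPM in PDC, 93.7 CPM in NC_CD8 and 7.32 CPM in C_CD8 cells. Of the 10 pairs of WT subsets Spib was called in 9, and the pair not called was Esamhi against Esamlo (log2 0.37 ± 0.35, adjusted p = 0.833). A call means an edgeR quasi-likelihood p below 0.05 after Benjamini-Hochberg adjustment over all 18093 genes.

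**Figure D1:**
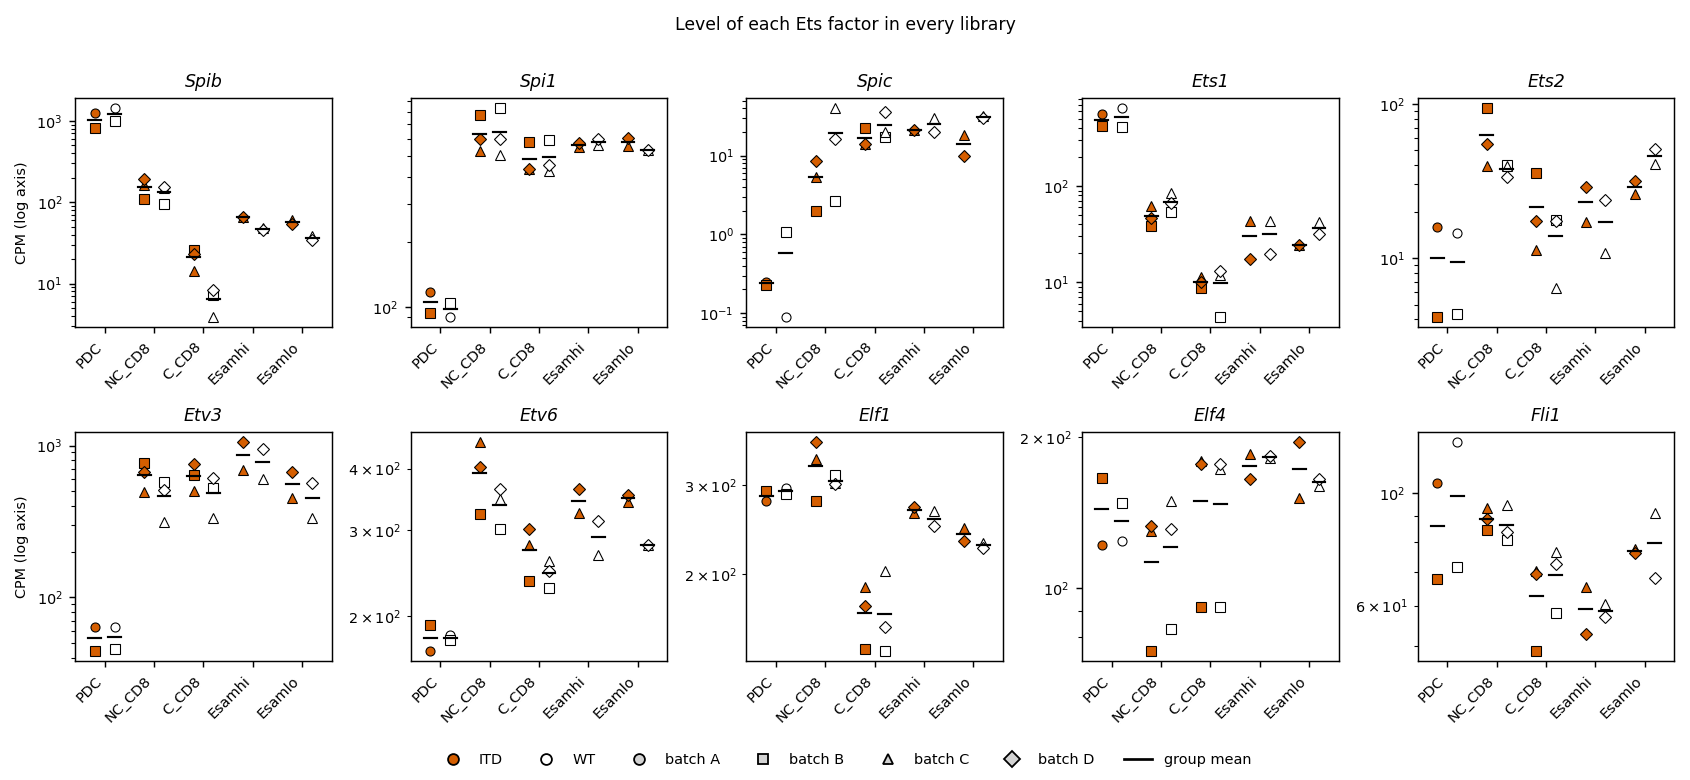
CPM of each of the 10 Ets factors in every library, on log axes whose range differs between panels, by subset. Filled symbols are ITD and open symbols WT, the shape gives the batch and the bar the group mean. Spib and Ets1 are highest in PDC, while Spi1, Spic and Etv3 are lowest there. ITD libraries of C_CD8 cells lie above the WT libraries for Spib.

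Spi1 ran the other way. Spi1 was at 90.2 and 105 CPM in WT PDC, against 506 to 830 CPM in NC_CD8, 428 to 594 CPM in C_CD8, 564 and 598 CPM in Esamhi, and 532 CPM in both Esamlo libraries. The PDC libraries lay below every other library. The other 4 subsets overlapped, except that both Esamlo libraries were below both Esamhi libraries. PDC were lower by log2 -2.73 ± 0.27 than NC_CD8 (adjusted p = 6.63e-07), by -2.45 ± 0.27 than C_CD8, by -2.65 ± 0.29 than Esamhi and by -2.53 ± 0.28 than Esamlo cells. None of the 6 pairs without PDC was called without a batch term. With the experiment batch as a term, NC_CD8 were above C_CD8 cells by 0.25 (adjusted p = 0.037) and C_CD8 cells below Esamhi cells by -0.40 (adjusted p = 0.00644).

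Because counts grow with transcript length, levels were compared between genes per kilobase of annotated exon. In PDC of WT mice Spib was at 422 ± 104 CPM per kb (SD, n = 2), the highest of 26 Ets genes ranked, and made up 60.8% of their summed level. Ets1 (62.1 CPM per kb) and Elf1 (43.5 CPM per kb) came next, and Spi1 was at rank 4 with 36.2 CPM per kb. In each of the other 4 WT subsets Spi1 ranked highest, at 183 to 239 CPM per kb and 41.3% to 47.9% of the summed level. Spib was at rank 3 in NC_CD8 cells (46.5 CPM per kb), at rank 13 in C_CD8 cells (2.27 CPM per kb) and at rank 8 in both CD11b+ subsets (16.3 CPM per kb in Esamhi, 12.6 in Esamlo). The Spib level was 8.97 and 14.8 times that of Spi1 in the WT PDC libraries. Spi1 was 3.56 to 9.43 times Spib in WT NC_CD8, 12.5 and 13.9 times in WT Esamhi, 14.7 and 16.6 times in WT Esamlo and 58.5 to 117 times in WT C_CD8 cells.

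**Figure D2:**
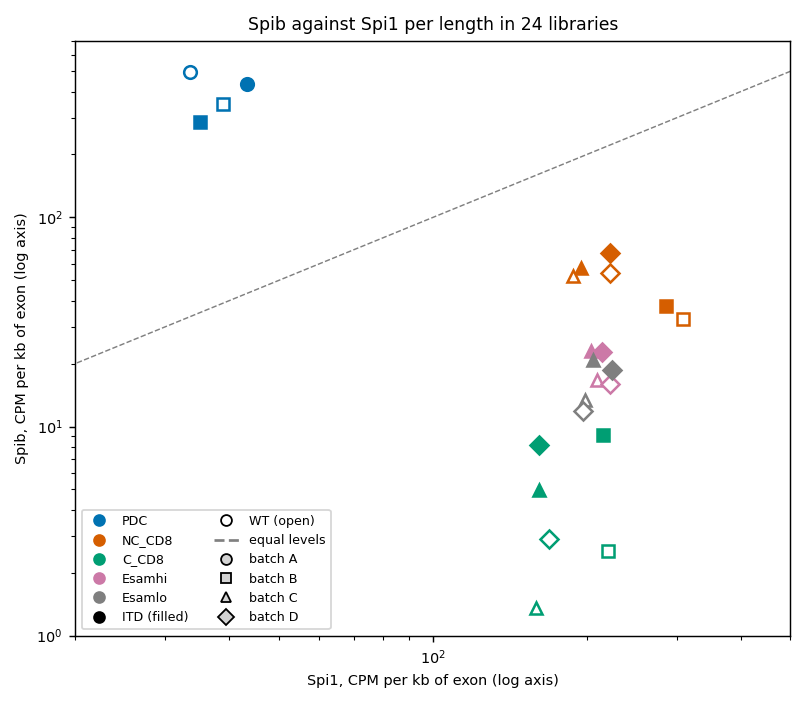
Spib against Spi1 in CPM per kb of exon, on log axes, in all 24 libraries. Colour is the subset, shape the batch, filled symbols ITD and open symbols WT, and the dashed line marks equal levels. The 4 PDC libraries lie above the line and all others below it. C_CD8 libraries are lowest in Spib, and the 3 ITD ones are above the 3 WT ones.

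Spic was nearly absent from PDC. It had 5 and 4 reads in ITD and 2 and 20 reads in WT PDC libraries. In the other WT subsets Spic was at 2.64, 39.8 and 16.2 CPM (NC_CD8), 17.3, 20 and 35.7 CPM (C_CD8), 29.9 and 19.9 CPM (Esamhi), and 31.6 and 29.6 CPM (Esamlo). The 3 WT NC_CD8 libraries differed more than the subsets outside PDC did. PDC against Esamlo in WT gave log2 -5.86 ± 1.02 (adjusted p = 0.000259), and the pairs without PDC were not called. Spic is also a gene of red pulp macrophages, and 10 of 10 listed markers of those cells were in the table. Their summed level moved with Spic in the WT libraries of NC_CD8 cells. It was 44.6 CPM in the WT library of batch B, where Spic was lowest, 1171 CPM in that of batch C, where Spic was highest, and 309 CPM in that of batch D. WT C_CD8 libraries kept that order too, at 103, 329 and 364 CPM in batches B, C and D. ITD libraries of both CD8+ subsets did not, while those of the CD11b+ subsets did. In ITD Esamhi cells 21.1 and 21 CPM of Spic (batches C and D) stood beside 625 and 361 CPM. In ITD Esamlo cells 18.2 and 10 CPM stood beside 524 and 320 CPM. In ITD C_CD8 cells the highest Spic (22.1 CPM, batch B) stood beside the lowest sum (101 CPM). In ITD NC_CD8 cells the highest Spic (8.53 CPM, batch D) stood beside 154 CPM, and 5.4 CPM of Spic (batch C) beside 195 CPM. In PDC the sum was 27.8 to 34.3 CPM, and C1qa, a complement gene of these macrophages, was at 0 in all 4 libraries. The part of macrophage RNA in the Spic level was not tested.

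**Figure D3:**
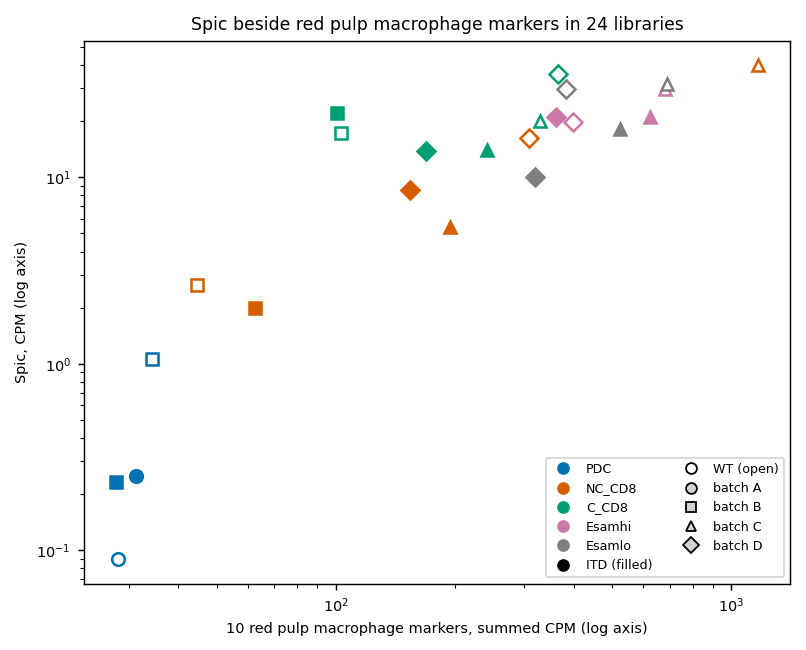
Spic in CPM against the summed CPM of 10 red pulp macrophage markers, on log axes, in all 24 libraries. Colour is the subset, shape the batch, filled symbols ITD and open symbols WT. PDC lie at the low end of both axes, and the WT NC_CD8 library of batch C, with 39.8 CPM of Spic, is at the high end.

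Ets1, an activator of lymphoid cells, followed Spib across subsets. In WT cells Ets1 was at 642 and 410 CPM in PDC, at 54.3 to 84.2 CPM in NC_CD8, at 4.39 to 13.2 CPM in C_CD8, at 43.2 and 19.7 CPM in Esamhi, and at 42.2 and 31.9 CPM in Esamlo cells. The PDC libraries lay above and the C_CD8 libraries below all others. PDC were above C_CD8 cells by log2 5.64 ± 0.45 (adjusted p = 2.08e-08) and above NC_CD8 cells by 2.98 ± 0.40 (adjusted p = 2.07e-05). NC_CD8 cells were above C_CD8 cells by 2.67 ± 0.39 (adjusted p = 5.52e-05). Over the 24 libraries the log2 levels of Spib and Ets1 had a Pearson r of 0.94, and those of Spi1 and Etv3 of 0.95, where libraries of a subset and of a batch share much of their variation.

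Fli1 lies beside Ets1 on chromosome 9, with 93359 bases between the 2 genes, but varied less than Ets1. In WT cells Fli1 was at 126 and 71.6 CPM in PDC, at 80.9 to 94.6 CPM in NC_CD8, at 58.1 to 76.4 CPM in C_CD8, at 60.4 and 56.9 CPM in Esamhi, and at 91.3 and 67.9 CPM in Esamlo cells. Libraries of most subsets overlapped, and the highest WT mean was 1.68 times the lowest. The pair PDC against Esamhi was called (log2 0.69 ± 0.26, adjusted p = 0.0497), and that call was lost with a batch term (0.40, adjusted p = 0.064). The batch term gave 2 other calls instead, NC_CD8 above Esamhi cells by 0.54 (adjusted p = 0.0063) and C_CD8 above Esamhi cells by 0.32 (adjusted p = 0.0491). It was also lost without either Esamhi WT library (adjusted p = 0.148 and 0.189) and without the PDC WT library of batch A (adjusted p = 0.69).

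Ets2, whose activity is raised by Ras and MAP kinase signalling, had its lowest WT mean in PDC. Ets2 was at 14.6 and 4.35 CPM in WT PDC, against 33.7 to 40.2 CPM in NC_CD8, 6.35 to 17.7 CPM in C_CD8, 10.8 and 23.7 CPM in Esamhi, and 40.7 and 50.6 CPM in Esamlo cells. PDC overlapped C_CD8 and Esamhi cells and lay below the other 2 subsets. With a batch term NC_CD8 cells were above C_CD8 cells by log2 1.47 (adjusted p = 3e-04). C_CD8 and Esamhi cells were then below Esamlo cells by -2.07 (adjusted p = 5.24e-05) and -1.47 (adjusted p = 0.0118). Without a batch term 2 pairs were called. PDC against Esamlo gave log2 -2.32 ± 0.73 (adjusted p = 0.0215) and PDC against NC_CD8 gave -1.95 ± 0.68 (adjusted p = 0.0413). Ets2 differed strongly by batch in PDC, and with a batch term PDC against C_CD8 became -2.38 (adjusted p = 0.000116, against -0.63 and 0.479 without it). Batch A held PDC alone, so with that term the level of PDC rests on batch B, where Ets2 was lower (4.35 CPM in WT). Without the PDC WT library of batch B neither call was made (adjusted p = 0.184 and 0.317). Leaving out the Esamlo WT library of batch D ended the Esamlo call (0.0988), and leaving out any 1 of the NC_CD8 WT libraries ended the NC_CD8 call (0.0609 to 0.0764).

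Etv3, a repressor, was among the most abundant Ets genes of conventional dendritic cells and low in PDC. Etv3 was at 63.6 and 45.5 CPM in WT PDC, against 316 to 576 CPM in NC_CD8, 331 to 609 CPM in C_CD8, 603 and 952 CPM in Esamhi, and 331 and 571 CPM in Esamlo cells. The PDC libraries lay below all others. PDC against Esamhi gave log2 -3.90 ± 0.46 (adjusted p = 3.45e-06), and the other 3 pairs with PDC gave -3.09 to -3.26 and were called as well. In every subset with batches C and D, the WT library of batch D was above that of batch C. With a batch term Esamhi cells were above Esamlo cells by 0.80 (adjusted p = 0.00254), NC_CD8 cells below Esamhi cells by -0.96 (adjusted p = 5.63e-05) and C_CD8 cells below Esamhi cells by -0.77 (adjusted p = 0.000125).

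Etv6, a repressor needed by blood stem cells, varied less, with the highest WT mean 1.86 times the lowest. Etv6 was at 183 and 179 CPM in WT PDC, against 301 to 364 CPM in NC_CD8, 228 to 259 CPM in C_CD8, 267 and 312 CPM in Esamhi, and 279 CPM in both Esamlo libraries. PDC again lay below all others. PDC against NC_CD8 gave log2 -0.88 ± 0.14 (adjusted p = 9.78e-05), the pairs of PDC with the other subsets gave -0.54 to -0.75 and were called, and NC_CD8 against C_CD8 gave 0.34 ± 0.12 (adjusted p = 0.0461). Leaving out any 1 library of the 2 CD8+ subsets ended the last of these calls (adjusted p from 0.052 to 0.171), and leaving out the PDC WT library of batch B ended that for PDC against C_CD8 (0.0908). Of the exonic bases of Etv6, 2.26% overlap genes on the other strand, and the strand setting of the counting is not given in the sources used here.

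Elf1 was lowest in C_CD8 cells. In WT cells Elf1 was at 296 and 289 CPM in PDC, at 302 to 315 CPM in NC_CD8, at 141, 203 and 157 CPM in C_CD8, at 267 and 249 CPM in Esamhi, and at 231 and 226 CPM in Esamlo cells. The C_CD8 libraries lay below all others. NC_CD8 cells were above C_CD8 cells by log2 0.76 ± 0.13 (adjusted p = 0.000337), PDC above C_CD8 cells by 0.71 ± 0.14 (adjusted p = 0.000887), and C_CD8 cells below Esamhi cells by -0.59 ± 0.15 (adjusted p = 0.00642). Of its exonic bases 4.85% overlap genes on the other strand, Wbp4 among them.

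Elf4, which restrains the proliferation of CD8+ T cells, was called in 0 of the 10 pairs of WT subsets without a batch term and in 6 with it. Elf4 was at 124 and 148 CPM in WT PDC, 82.9 to 149 CPM in NC_CD8, 91.7 to 177 CPM in C_CD8, 182 and 183 CPM in Esamhi, and 160 and 165 CPM in Esamlo cells. Within either CD8+ subset the library of batch B was the lowest in both genotypes, while the PDC libraries of batch B were the higher ones. Without a batch term PDC against C_CD8 gave log2 -0.22 ± 0.30 (adjusted p = 0.599), and with it the sign turned, to 0.47 (adjusted p = 0.00678). With the batch term PDC were above the other subsets as well, by 0.85 for NC_CD8 (adjusted p = 6.44e-05), 0.39 for Esamhi (adjusted p = 0.0459) and 0.56 for Esamlo cells (adjusted p = 0.00666), and NC_CD8 cells were below C_CD8 cells by -0.38 (adjusted p = 0.00442) and below Esamhi cells by -0.46 (adjusted p = 0.00775). No batch holds both PDC and CD11b+ cells, so a batch term links these subsets through the CD8+ libraries alone. Batch A holds PDC alone, so with a batch term the level of PDC against any other subset rests on batch B.

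Over all 10 genes, PDC against NC_CD8 in WT called 2 of 10 as higher and 5 as lower, where 26.4% of all genes tested were called. The counts were 3 higher and 4 lower for PDC against C_CD8 (37.8% of all genes), 3 and 4 for PDC against Esamhi (30.6%), and 2 and 5 for PDC against Esamlo (30.2%). NC_CD8 against C_CD8 called 4 as higher (25% of all genes), and NC_CD8 against Esamhi (6.34%) and against Esamlo (4.08%) called Spib alone. C_CD8 cells were lower in 3 genes against Esamhi (23.5%) and in 2 against Esamlo cells (16%), and Esamhi against Esamlo called 0 of the 10 (0.658% of all genes, 0 of the 10 at an unadjusted p under 0.05, and 2 with a batch term). For the unadjusted and the batch-term counts of that pair no share of all genes was worked out. Without a batch term 39 of 100 combinations of a gene and a WT pair were called, beside the shares of all genes given above for each pair. In ITD cells the count was 37 of 100, where 19.1% of all such combinations were called. With the batch as a term the counts were 60 in WT (32.8% of all) and 63 in ITD cells (31.5% of all). The pairs share libraries and are not independent.

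**Figure D4:**
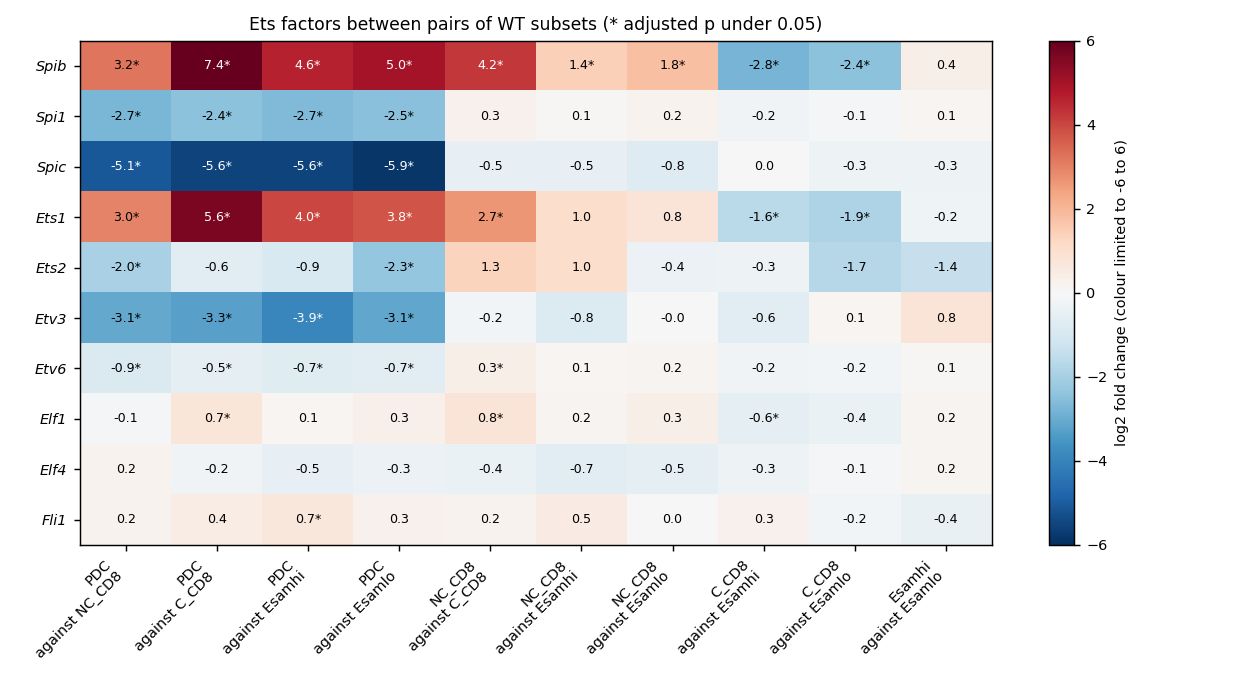
Log2 fold change of each Ets factor between pairs of WT subsets, first-named subset over the other, with no batch term. Red is higher and blue lower in the first-named subset, and a star marks an adjusted p under 0.05. Spib has stars in 9 of 10 columns and Elf4 in none.

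Leaving out single libraries also touched Spib and Ets1. The call of Spib for NC_CD8 against Esamhi was lost without the NC_CD8 WT library of batch D (adjusted p = 0.0509) or either Esamhi WT library (0.135 and 0.147), and that for NC_CD8 against Esamlo without the Esamlo WT library of batch D (0.0838). With all libraries these Spib differences were log2 1.41 ± 0.33 (adjusted p = 0.0143) and 1.78 ± 0.34 (adjusted p = 0.00448). The call of Ets1 for C_CD8 against Esamhi (-1.63 ± 0.41, adjusted p = 0.00707) was lost without the Esamhi WT library of batch C (0.181).

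The genes whose log2 levels followed each factor most closely over the 24 libraries were named by a fixed rule, as the 3 genes of the highest Pearson r among those with a mean of at least 5 CPM. For Spib they were Cd69 (r = 0.973), Irf2bp2 (0.969) and Hdac5 (0.962). For Spi1 they were the MHC class II gene H2-Eb1 (0.986), Klri1 (0.982) and H2-Aa (0.978), also a class II gene. Spic was closest to Vcam1 (0.947), an adhesion molecule that is 1 of the macrophage markers above, Pdgfb (0.943) and Gpr34 (0.941). Ets1 was closest to Stambpl1 (0.961), Etv3 to Traf1 (0.977), Etv6 to Ttyh3 (0.941), Ets2 to Dhx40 (0.94), Elf4 to Ccdc88b (0.929), Elf1 to Tmem106b (0.924) and Fli1 to Mat2a (0.795). These points share subset, batch and library, and 4 of the 24 are PDC.

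ITD was set against WT within each subset. Of the 10 factors Spib had the largest fitted log2 increase in any subset, and it lay in C_CD8 cells. Spib was at 26.1, 14.2 and 23.4 CPM in ITD C_CD8 cells of batches B, C and D, against 7.32, 3.9 and 8.31 CPM in WT C_CD8 cells. The libraries did not overlap, and in each batch the ITD level was the higher one by log2 1.85, 1.85 and 1.48. The fitted log2 fold change was 1.72 ± 0.30, which did not pass (adjusted p = 0.0695, edgeR quasi-likelihood test). With a block on the pairs of libraries it was 1.73 ± 0.09 and passed (adjusted p = 5.62e-06), and it passed with each of the 3 pairs left out in turn (adjusted p from 1.63e-05 to 0.000216). Without the ITD library of batch C it passed without the block too (adjusted p = 0.017). That library was the lowest in ITD, and its WT partner, the lowest in WT, was kept. The genotypes in that fit were therefore unequal in batch. In bulk libraries a higher level in every cell and a larger share of cells with a high level cannot be told apart.

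Summed lists of markers of other dendritic cells were also higher in ITD C_CD8 cells, while single markers varied. The 8 plasmacytoid markers summed to 153 to 197 CPM in ITD and 125 to 141 CPM in WT C_CD8 cells, against 12085 to 12796 CPM in PDC. Among them Siglech was at 8.79 to 14.4 CPM in ITD and 5.23 to 6.84 CPM in WT, Tcf4 at 39.4 to 55.9 CPM in ITD and 26.4 to 33.3 CPM in WT, and Cox6a2 at 0.233 to 0.431 CPM in ITD and 0.0507 to 0.658 CPM in WT. Cox6a2 thus overlapped between the genotypes, and the other markers of that list are not given singly here. The 8 cDC2 markers summed to 95.9 to 215 CPM in ITD and 56.6 to 92.3 CPM in WT. The 4 genes listed for the CD11b+ fractions summed to 310 to 409 CPM in ITD and 277 to 288 CPM in WT. The 9 B cell markers in the table summed to 350 to 474 CPM in ITD and 377 to 529 CPM in WT. The part of such cells in the Spib difference was not tested.

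Outside PDC the other subsets had the same sign at a smaller size on the log2 scale. That order depends on the scale, because C_CD8 cells started from the lowest level. Group means of WT and ITD were 6.51 and 21.2 CPM in C_CD8 and 133 and 155 CPM in NC_CD8 cells. They were 46.8 and 65.5 CPM in Esamhi and 36.3 and 56.7 CPM in Esamlo cells. In CPM the rise in C_CD8 cells was the smallest of these. Spib was at 66 and 65.1 CPM in ITD against 47.9 and 45.8 CPM in WT Esamhi cells, and at 59.8 and 53.6 CPM in ITD against 38.5 and 34.1 CPM in WT Esamlo cells. Neither subset had overlapping genotypes. With 2 libraries per genotype that says little, and the share of all genes without overlap was not worked out. In Esamlo cells Spi1, Etv6 and Elf1 were also higher in ITD without overlap, and Spic, Ets1 and Ets2 lower. Log2 fold changes of Spib were 0.49 ± 0.35 in Esamhi and 0.67 ± 0.35 in Esamlo cells (adjusted p = 1 for both). With the pair block they were 0.49 ± 0.09 (adjusted p = 0.161) and 0.67 ± 0.10 (adjusted p = 0.0453). In NC_CD8 cells Spib was at 108, 164 and 195 CPM in ITD against 93.7, 151 and 155 CPM in WT, so the genotypes overlapped while each ITD library was above the WT library of its batch. The fold change was 0.31 ± 0.28 (adjusted p = 0.924), and 0.31 ± 0.07 with the block (adjusted p = 0.0357). The plasmacytoid markers summed to 742 to 1120 CPM in ITD and 933 to 1184 CPM in WT NC_CD8 cells. The block calls in Esamlo and NC_CD8 cells were lost whichever pair of the subset was left out (adjusted p from 0.0579 to 0.262 and from 0.109 to 0.191).

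PDC differed in sign. Spib was at 1254 and 818 CPM in ITD PDC of batches A and B, against 1421 and 1000 CPM in WT PDC. The genotypes overlapped, and in both batches the ITD level was the lower one. The fold change was -0.21 ± 0.35 (adjusted p = 1) without and -0.22 ± 0.09 (adjusted p = 0.655) with the block, so no difference was shown in PDC. Leaving out the WT library of batch A or the ITD library of batch B turned the sign without the block, to 0.13 and 0.10. Either fit left the genotypes unequal in batch, and batch A was the higher one in both genotypes. Over the 12 pairs Spib was higher in ITD in 10 pairs, by log2 0.22 to 1.85, and lower in the 2 PDC pairs. The average over the 5 subsets was 0.60 ± 0.15 (adjusted p = 0.0937) and, with the block, 0.59 ± 0.04 (adjusted p = 1.02e-05), which passed without any 1 of the 12 pairs. The 12 pairs came from 4 experiment batches, and the block treats pairs of the same batch as independent. Apart from batch A, which held 1 pair, no batch was left out as a whole. The same limits hold for the averages of Etv3 and Etv6 and for the test of a difference among subsets.

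Whether the ITD effect on Spib differed among the 5 subsets was tested directly, on the log2 scale. Without the block the difference was not called (adjusted p = 1). With the block it was (adjusted p = 0.000571), and it was called again with each of the 12 pairs left out (adjusted p from 0.000618 to 0.00546). Spib was the only 1 of the 10 factors called in that test. Over the subsets the highest group mean of Spib was 48.8 times the lowest in ITD cells and 186 times in WT cells. In C_CD8 cells Spi1 was 19.8 to 32.5 times Spib per length in ITD libraries, against 58.5 to 117 times in WT libraries. The share of Spib in the summed per-length level of the 26 Ets genes was 1.84% in ITD and 0.595% in WT C_CD8 cells. In PDC that share was 57.5% in ITD and 60.8% in WT.

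**Figure D5:**
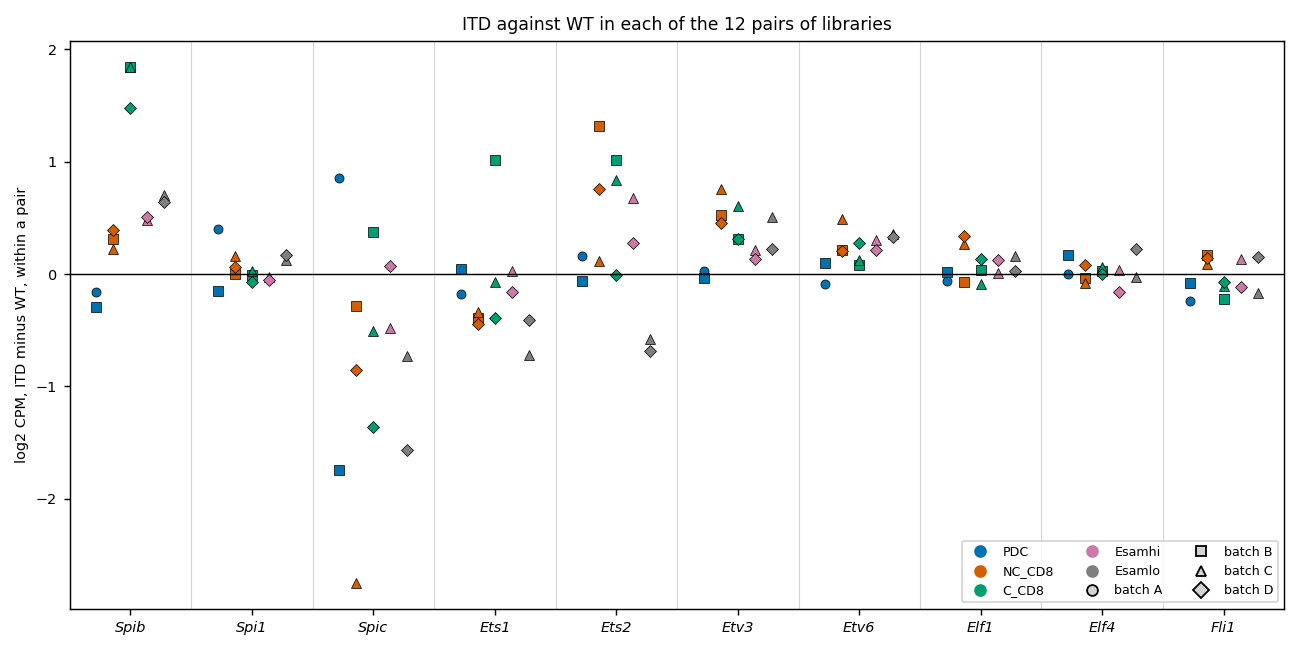
Log2 difference of CPM, ITD minus WT, in each of the 12 pairs, each made of the ITD and the WT library of 1 subset in 1 batch. Colour is the subset and shape the batch. For Spib, Etv3 and Etv6 all 10 pairs outside PDC lie above 0, and Spib in C_CD8 cells lies at 1.48 to 1.85. Spi1, Elf1, Elf4 and Fli1 have pairs on both sides of 0, with Spi1 at 0.40 in PDC of batch A and Elf1 at 0.34 in NC_CD8 cells of batch D.

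Etv3 was higher in ITD in all 10 pairs outside PDC. In NC_CD8 cells Etv3 was at 769, 496 and 665 CPM in ITD against 576, 316 and 506 CPM in WT. In C_CD8 cells it was at 636, 499 and 756 CPM in ITD against 523, 331 and 609 CPM in WT. The genotypes overlapped in every subset, because batches differed more than genotypes, while each ITD library of these 2 subsets was above its WT partner. Log2 fold changes were 0.56 ± 0.34 in NC_CD8 (adjusted p = 0.822; with the block 0.58 ± 0.08, adjusted p = 0.00266) and 0.38 ± 0.34 in C_CD8 cells (adjusted p = 1; with the block 0.41 ± 0.08, adjusted p = 0.0342). The NC_CD8 call with the block was made without each pair in turn, and the C_CD8 call was lost without any 1 pair (adjusted p from 0.0772 to 0.246). Markers of other cells differed between the same NC_CD8 libraries, in which Spib and Etv6 were called with the block as well. The 8 cDC1 markers summed to 585 to 689 CPM in ITD and 931 to 1788 CPM in WT, and the 10 T and NK cell markers to 19.9 to 34.6 CPM in ITD and 45 to 136 CPM in WT. The part of such cells in these differences was not tested. In PDC Etv3 was at 63.6 and 44.4 CPM in ITD and 63.6 and 45.5 CPM in WT, a difference of -0.01 ± 0.11 with the block. On average over the subsets the difference was 0.29 ± 0.17 (adjusted p = 0.71), and 0.30 ± 0.04 with the block (adjusted p = 0.0021), called without any 1 of the 12 pairs.

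Etv6 was higher in ITD in all 10 pairs outside PDC as well. It was at 323, 452 and 402 CPM in ITD against 301, 347 and 364 CPM in WT NC_CD8 cells, at 325 and 363 CPM in ITD against 267 and 312 CPM in WT Esamhi cells, and at 342 and 354 CPM in ITD against 279 CPM in both WT libraries of Esamlo cells. The genotypes did not overlap in Esamhi and Esamlo cells and overlapped in the other subsets. With so few CD11b+ libraries per genotype that says little, as given for Spib. The average difference was 0.21 ± 0.06 (adjusted p = 0.178) and, with the block, 0.21 ± 0.04 (adjusted p = 0.00676), called without any 1 of the 12 pairs. Within NC_CD8 cells it was 0.31 ± 0.12 (adjusted p = 0.531), and with the block 0.30 ± 0.07 (adjusted p = 0.0388), a call lost without any 1 pair (adjusted p from 0.081 to 0.319). In PDC the difference was 0.01 ± 0.15. For neither Etv3 nor Etv6 was a difference of the effect among subsets called (adjusted p = 0.276 and 0.628 with the block).

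Spi1 differed little between genotypes. Spi1 was at 117 and 94.3 CPM in ITD PDC against 90.2 and 105 CPM in WT, at 771, 525 and 597 CPM in ITD NC_CD8 cells against 830, 506 and 597 CPM in WT, and at 580, 434 and 435 CPM in ITD C_CD8 cells against 594, 428 and 456 CPM in WT. The libraries overlapped in these subsets. The average difference was log2 0.06 ± 0.11 (adjusted p = 0.976), and 0.06 ± 0.04 with the block (adjusted p = 0.498). Esamlo cells had non-overlapping libraries, with 555 and 604 CPM in ITD against 532 CPM in both WT libraries, a difference that was not called (0.15 ± 0.27, adjusted p = 1; with the block adjusted p = 0.592).

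Spic was lower in ITD in 9 of 12 pairs, and its differences did not pass. In NC_CD8 cells Spic was at 2, 5.4 and 8.53 CPM in ITD against 2.64, 39.8 and 16.2 CPM in WT, and the libraries overlapped. The fold change there was -1.76 ± 0.67 (adjusted p = 0.491; with the block adjusted p = 0.103). The summed red pulp macrophage markers were 62.7, 195 and 154 CPM in these ITD libraries and 44.6, 1171 and 309 CPM in these WT libraries, so that both were lower in ITD in batches C and D. In Esamlo cells Spic was at 18.2 and 10 CPM in ITD against 31.6 and 29.6 CPM in WT, with no overlap (-1.10 ± 0.79, adjusted p = 1), where the markers summed to 524 and 320 CPM in ITD and 689 and 382 CPM in WT. On average the Spic difference was -0.95 ± 0.39 (adjusted p = 0.437), and -0.87 ± 0.31 with the block (adjusted p = 0.122). The part of macrophage RNA in these differences was not tested.

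The remaining 5 factors were not called in any comparison of the genotypes, with or without the block. Ets1 was lower in ITD in 9 of 12 pairs, with an average of -0.21 ± 0.19 (adjusted p = 0.855). In NC_CD8 cells Ets1 was at 38.5, 61.7 and 46.9 CPM in ITD against 54.3, 84.2 and 66.8 CPM in WT, lower in all 3 batches (-0.39 ± 0.36, adjusted p = 0.929; with the block adjusted p = 0.194). The 10 T and NK cell markers, types that express Ets1 strongly, summed to 19.9 to 34.6 CPM in these ITD libraries and 45 to 136 CPM in these WT libraries, and their part in the difference was not tested. Ets2 was at 93.3, 39.3 and 54.6 CPM in ITD against 40.2, 39.2 and 33.7 CPM in WT NC_CD8 cells (0.84 ± 0.56, adjusted p = 0.867; with the block adjusted p = 0.075). In Esamlo cells Ets2 had the other sign, at 26.1 and 31.8 CPM in ITD against 40.7 and 50.6 CPM in WT, with no overlap (-0.64 ± 0.69, adjusted p = 1). Elf1, Elf4 and Fli1 had average differences of 0.07 ± 0.07, 0.03 ± 0.14 and -0.04 ± 0.11 (adjusted p = 0.88, 1 and 1).

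Without the block, 0 of the 10 factors were called in any of the 7 comparisons of the genotypes by edgeR. Of all genes tested, 0.0608% were called in PDC, 0.31% in NC_CD8, 0.0166% in C_CD8, 0% in Esamhi and 0.00553% in Esamlo cells, 0.359% on average and 0% for a difference among subsets. At an unadjusted p under 0.05 there were 0, 2, 1, 0 and 1 of the 10 in the same order of subsets, 3 on average and 1 for the difference, and DESeq2 called 1 in C_CD8 cells, 2 on average and 0 in the other comparisons. For the unadjusted and the DESeq2 counts no share of all genes was worked out, so they cannot be set against such a rate. With the pair block 0 of 10 were called in PDC (0.249% of all genes), 3 in NC_CD8 (4.79%), 2 in C_CD8 (1.23%), 0 in Esamhi (0.0497%) and 1 in Esamlo cells (0.0497%). On average 3 of 10 were called with the block (6.83% of all genes), and 1 for the difference among subsets (0.304%). Every call with the block in a single subset or on average was an increase. The median of the average difference was log2 0.06 over the 10 factors and -0.0015 over all genes tested, without the block.

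The other Ets genes were 16 by a list, of which 10 passed the filter (Gabpa, Erg, Erf, Etv1, Etv5, Elf2, Ehf, Elk1, Elk3 and Elk4) and 6 did not (Fev, Etv2, Etv4, Elf3, Elf5 and Spdef). In the genotype comparisons 0 of 10 were called without the block. With it 1 was called in NC_CD8 cells (4.79% of all genes), 1 in C_CD8 cells (1.23%) and 2 on average (6.83%). Ehf, a factor known from epithelia, was higher in NC_CD8 cells, at 8.2 ± 2.22 CPM in ITD and 3.61 ± 1.65 CPM in WT (SD, n = 3 each; log2 1.30 ± 0.21, adjusted p = 0.00431). Elk3, a ternary complex factor, was higher in C_CD8 cells, at 17.6 ± 0.704 CPM in ITD and 10.9 ± 3.13 CPM in WT (0.72 ± 0.15, adjusted p = 0.034), and on average (0.25 ± 0.07, adjusted p = 0.0482). Etv5 was lower on average (-0.83 ± 0.16, adjusted p = 0.00885). In C_CD8 cells Etv5 was at 2.04 ± 0.473 CPM in ITD and 5.19 ± 0.657 CPM in WT. Ehf also marked a difference between WT subsets, with 0.143 ± 0.0521 CPM in PDC and 58.9 ± 9.48 CPM in Esamhi cells (SD, n = 2 each; -8.65 ± 0.56, adjusted p = 2.4e-09).

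Factors linked to PU.1 or Spi-B, called partners here, were listed as Irf4, Irf8, Tcf4, Runx1, Cebpa and Jun. Whether each of them binds DNA together with PU.1 or Spi-B was not tested. None of the 6 was called without the block, and with it 3 were called in NC_CD8 cells (2 higher and 1 lower, where 4.79% of all genes were called), 1 in C_CD8 cells (1.23% of all genes) and 2 on average (6.83%). Irf8, which pairs with PU.1 at composite sites, was at 142 ± 77.5 CPM in ITD and 452 ± 295 CPM in WT NC_CD8 cells (-1.59 ± 0.29, adjusted p = 0.00861). The cDC1 markers, a list that includes Irf8, were lower in the same ITD libraries, as given for Etv3. Xcr1 alone was at 7.04 to 14.2 CPM in ITD and 23.3 to 165 CPM in WT, and the part of cDC1 cells in the Irf8 difference was not tested. Tcf4, the E protein that drives the plasmacytoid program, was higher in C_CD8 cells, where Spib was, at 49.3 ± 8.71 CPM in ITD and 29.6 ± 3.5 CPM in WT (0.74 ± 0.10, adjusted p = 0.00472). Tcf4 was higher in NC_CD8 cells too (0.38 ± 0.10, adjusted p = 0.0438) and on average (0.29 ± 0.05, adjusted p = 0.00593). Runx1, a factor that acts upstream of PU.1 in blood stem cells, was higher in NC_CD8 cells (0.50 ± 0.11, adjusted p = 0.0246) and on average (0.26 ± 0.06, adjusted p = 0.0213). Irf4, the partner of PU.1 in cDC2, was at 21.2 ± 10.8 CPM in ITD and 10.4 ± 5.52 CPM in WT C_CD8 cells and was not called.

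Genes known as regulated by PU.1 were listed as Flt3, Csf1r, Csf2ra, Csf2rb, Csf3r, Itgam, Itgax, Cd14, Cd68, Ciita, Btk and Il7r. Between WT subsets 8 of the 12 were lower and 3 higher in PDC than in NC_CD8 cells, where 26.4% of all genes were called, and 8 lower and 2 higher in PDC than in C_CD8 cells (37.8% of all genes). The integrin gene Itgax, which encodes CD11c, was lower in PDC by log2 -2.98 ± 0.19 than in NC_CD8 cells (adjusted p = 2.58e-09), and the cytokine receptor gene Il7r was higher by 3.45 ± 0.39 (adjusted p = 3.05e-06). With ITD 0 of 12 were called without the block. With it 2 were called in NC_CD8 cells, 2 in C_CD8 cells and 2 on average, beside the same shares of all genes as for the partners. Flt3 was lower in C_CD8 cells, at 352 ± 48.1 CPM in ITD and 524 ± 90.9 CPM in WT (-0.56 ± 0.08, adjusted p = 0.00438), and on average (-0.30 ± 0.04, adjusted p = 0.00139). Il7r was higher in C_CD8 cells, at 11.7 ± 3.66 CPM in ITD and 3.83 ± 1.74 CPM in WT (1.62 ± 0.23, adjusted p = 0.00542), in NC_CD8 cells (0.85 ± 0.19, adjusted p = 0.0251) and on average (0.69 ± 0.11, adjusted p = 0.00412). Csf2ra, a receptor chain for GM-CSF, was lower in NC_CD8 cells (-0.29 ± 0.07, adjusted p = 0.0256). The other 9 genes of this list were not called.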

How the data were processed

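Per the labels' protocols, dendritic cells were isolated from spleens by flow cytometry, their RNA was extracted with a PicoPure kit (in part after Trizol), and cDNA and libraries were made with Clontech low-input kits (SMART-seq v4). The submitters' processing notes list bcl2fastq 1.8.4, Bowtie2 (as version 0.4, which is not a numbering of its releases), DESeq2 1.8.2 and mm10. For the read counter, the annotation and the strand setting the sources used here give nothing. The deposited files hold the authors' raw read counts per Ensembl gene, which were analysed, and a normalized table, which was not used. Of 39017 genes, 37693 had a symbol in GENCODE M21 (the same build), which also gave gene positions and exon lengths. Promoter windows came from RefSeq (GRCm38.p6).

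CPM is the count scaled to the library total, per mega-count. In R 4.3.3, edgeR 4.0.16 was fitted to all 24 libraries as 10 group means with TMM factors and filterByExpr (minimum count 10, 18093 genes, 14 residual degrees of freedom, common coefficient of biological variation 0.317). Genes were called at a Benjamini-Hochberg adjusted p under 0.05 over all genes. Fold changes are given ± their standard error (SE) on the log2 scale. Differences within pairs, and correlations, used log2 CPM with TMM factors and a prior count of 2. Other fits added a block on the 12 pairs of libraries (7 residual degrees of freedom, coefficient 0.141) or, for subsets, the experiment batch (11, 0.174). Batch A held PDC alone, so with the batch term the level of PDC against other subsets rested on batch B. The pairs come from the batch letters of the labels. After group means were subtracted, paired libraries had correlations over genes of r = 0.134 to 0.646. No replicates agreed within counting noise (chi-square per degree of freedom 13.3 to 86.3). Alternatives were DESeq2 1.42.0, its size factors in edgeR, no filter, only the groups compared, and each library or pair left out. The code was tested on simulated data. All 10 factors are named in the text. Listed genes outside the 10 are named when called with ITD, and the 3 genes of highest correlation by r. The factors and lists were chosen with earlier results of these data known. Figures used matplotlib 3.10.9.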

Additional observations from a re-analysis of the deposited data

Results flagged for a closer look

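The log2 ITD effect on Spib differed among the 5 subsets by a test of the difference itself, with the pair block (adjusted p = 0.000571, edgeR), and not without it (adjusted p = 1). That test does not say which subsets differ. The mean log2 difference of the pairs was largest in C_CD8 cells, at 1.72. It was 0.31 in NC_CD8, 0.49 in Esamhi and 0.67 in Esamlo cells, and -0.22 in PDC. Both PDC pairs were lower in ITD and all 10 pairs of the other subsets were higher. The mean log2 difference of the pairs in PDC was below that in NC_CD8 cells by -0.53, below that in C_CD8 cells by -1.95, below that in Esamhi cells by -0.72 and below that in Esamlo cells by -0.89. These 4 contrasts of single subsets were not tested, and the plasmacytoid markers beside the C_CD8 values are given with the Spib result.

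Of the other factors, pairs of subsets in which every pair of libraries moved one way in the first subset and the opposite way in the second were as follows, none of them tested. For Ets2 the mean difference in NC_CD8 minus that in Esamlo cells was 1.36, and that in Esamhi minus that in Esamlo cells was 1.11. For Spi1 the mean in NC_CD8 minus that in Esamhi cells was 0.11, and that in Esamhi minus that in Esamlo cells was -0.18. For Fli1 the mean in PDC minus that in NC_CD8 cells was -0.3, and that in NC_CD8 minus that in C_CD8 cells was 0.27.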

How the results depend on the processing

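The calls of the genotype depended on the replicate block, the fit that compares libraries within their pairs. Without it 0 of the 10 factors were called in every genotype comparison, and with it 3 were called in NC_CD8, 2 in C_CD8 and 1 in Esamlo cells, 3 on average over the subsets and 1 for a difference among subsets. DESeq2 called 1 in C_CD8 cells and 2 on average, and the fit with no filter on low counts called 1 in C_CD8 cells. With single libraries left out the C_CD8 count was 0 to 1. For these alternative fits no share of all genes was worked out. The block lowered the coefficient of variation as given under processing, and beyond that the cause was not tested. Of 100 combinations of a factor and a WT subset pair, 39 were called without and 60 with the batch in a replicate block, and 37 and 63 in ITD cells. The shares of all genes beside these counts are given with the subset results. For fits with single libraries left out no such share was worked out. With single libraries left out the counts were 35 to 38 in WT and 34 to 41 in ITD cells. With the batch block Elf4 turned its sign in PDC against C_CD8 (0.47 in WT and 0.52 in ITD), against Esamhi (0.39 and 0.53) and against Esamlo cells (0.56 and 0.53). For PDC these values rest on the libraries of batch B, as given under processing. With single libraries left out the Spib difference of ITD against WT in PDC ran from -0.62 to 0.13, Ets2 in PDC against C_CD8 of WT from -1.82 to 0.052, and Fli1 in PDC against NC_CD8 of ITD from -0.52 to 0.24. Those fits had no block, so leaving out a library also changed the balance of batches between the groups compared. Scaling with DESeq2 size factors or its test moved the median of all genes by at most 0.0401 (log2) and turned no sign among the 11 genotype and 125 subset results followed by name. Groups of 2 or 3 libraries, and few reads of Spic in PDC, limit what could be detected.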
